A study of Mus musculus with 4 samples.

Results

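Dexamethasone (DEX), a synthetic glucocorticoid, was compared with no DEX in lung endothelial cells whose glucocorticoid receptor (GR, gene Nr3c1) had been targeted by siRNA. The comparison took the 2 deposited expression values of each gene, GR siRNA with DEX and GR siRNA without, and kept genes of at least 1 FPKM (fragments of RNA counted per transcript length and per size of the library) in either. This left 11310 of 23997 genes. The cells came from C57BL/6 mice and were grown in EBM-2 medium containing 10% serum. All were exposed to an siRNA for 48 h, either a control siRNA or one against GR, and 2 of the 4 conditions also to 100 nM DEX for 18 h; the 2 control siRNA conditions serve below as the reference arm. Total RNA was sequenced. The series describes 3 replicates per condition, but the table holds 1 value per gene and condition, so that no difference below has a replicate error or a test, and none can be set against the spread between replicates. The labels state neither the age or sex of the mice nor how many isolates the cells came from.

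GR is a nuclear receptor that waits in the cytoplasm in a complex with the chaperone Hsp90 and its partners. When a glucocorticoid binds, the receptor moves to the nucleus, attaches to DNA and raises the transcription of genes such as Fkbp5, Tsc22d3, Per1 and Sgk1, and it lowers that of many cytokine genes driven by NF-kappaB and AP-1. In endothelium GR is known for damping inflammation and for acting on vascular tone, barrier and Wnt signalling. An siRNA lowers a transcript without removing the gene, so the targeted cells keep some receptor, and serum itself can carry steroid. The comparison asks what DEX does when the receptor message is lowered but not removed.

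Nr3c1 stood at 5.45 FPKM in GR siRNA cells without DEX and 5.32 FPKM with DEX, against 14.4 and 14.3 FPKM in the control siRNA arm. By this measure GR siRNA cells held 37.9% of the control level without DEX and 37.1% with DEX. Both GR siRNA values lay below both control siRNA values, as the labels say, and those with and without DEX differed by −0.030 on the log2(FPKM + 1) scale, on which all differences below are given as DEX minus no DEX. Folds are likewise ratios of FPKM + 1, so that 1.25-fold and 1.5-fold below are reached on that scale; it understates the fold of genes of low abundance. Pairs of FPKM values are given without DEX first, and pairs of differences for GR siRNA cells first.

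Few genes differed between GR siRNA cells with and without DEX. The main exceptions were short RNAs, genes with near-identical copies, the ribosomal RNA precursor Rn45s and the gene Lars2. The median difference was −0.0047 over all 11310 genes, with 48.1% of genes above 0 and 51.9% below (47.2% and 52.5% for the same genes in control siRNA cells). At least 1.5-fold, 60 genes (0.531%) were higher with DEX and 73 (0.645%) lower. Of these, 40 of the higher and 64 of the lower genes had no annotated transcript of 300 nt or more, and 14 and 6 shared at least 10% of their 31-base words with another gene. Among the 8535 genes with a transcript of at least 300 nt and less sharing, called long unshared genes below, 4 (0.0469%) were higher with DEX by 1.5-fold or more and 2 (0.0234%) lower. At 1.25-fold the counts were 36 (0.422%) and 22 (0.258%), and 99.3% of long unshared genes differed by less. The control siRNA arm gave counts of like size for the same genes, 22 (0.258%) higher and 26 (0.305%) lower with DEX at 1.25-fold, and 2 (0.0234%) and 1 (0.0117%) at 1.5-fold. Differences of long unshared genes had a standard deviation across genes of 0.105 in GR siRNA cells and 0.0869 in control siRNA cells. The read depth is unknown; the values of genes under 0.1 FPKM put the GR siRNA column with DEX at 0.811 of the depth of the column without DEX.

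**Figure D1:**
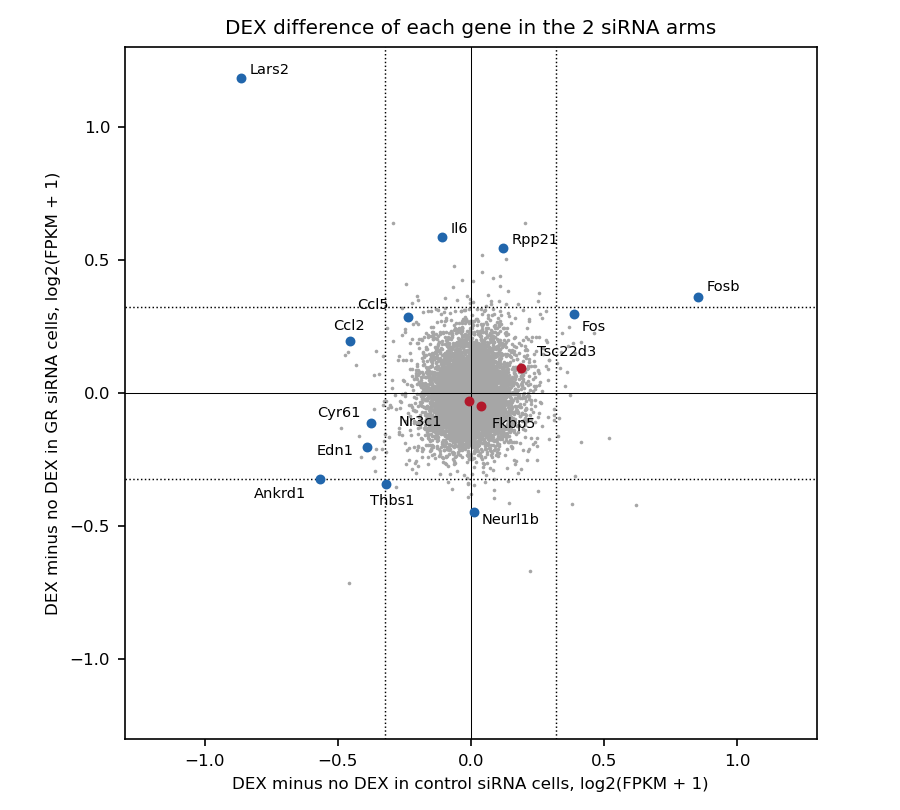
DEX difference of each of the 8535 long unshared genes in control siRNA cells (x axis) and GR siRNA cells (y axis), both as log2(FPKM + 1) with DEX minus without. Grey points are genes, coloured points are named genes (red for Nr3c1, Fkbp5 and Tsc22d3), dotted lines mark 1.25-fold; most genes form a round cloud at 0, with Lars2 far from it at 1.18 and −0.86 in GR siRNA and control siRNA cells.

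The differences of the same gene in the 2 arms were almost unrelated. Across the 8535 long unshared genes, which are not independent of each other, Spearman's rho between the arms was 0.043 and Pearson's r 0.041, and 51.8% of genes had the same sign; the arms share no column. Of the 36 genes at least 1.25-fold higher with DEX in GR siRNA cells, 21 were above 0 in control siRNA cells and only 1, Fosb, was 1.25-fold higher there too (2.78% of the 36 and 4.55% of the 22 in control siRNA cells). Of the 22 lower genes, 9 were below 0 in control siRNA cells and 2 reached 1.25-fold, Ankrd1 and 1 clone-named transcript (9.09% of the 22 and 7.69% of the 26). No long unshared gene was 1.5-fold different in the same direction in both arms.

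The receptor's standard targets differed little. Fkbp5, an Hsp90 co-chaperone that lowers the receptor's affinity for hormone, stood at 55.9 FPKM without and 54.1 FPKM with DEX in GR siRNA cells and at 92.2 and 94.9 FPKM in control siRNA cells. Its difference with DEX was −0.047 in GR siRNA cells and 0.040 in control siRNA cells. Tsc22d3, which encodes the anti-inflammatory leucine zipper protein GILZ, was at 24.5 and 26.2 FPKM, against 50.7 and 57.9 FPKM in control siRNA cells. Its differences were 0.092 and 0.19, so that in both arms the value with DEX was the higher one. For both genes the columns separate by siRNA and not by DEX, with every GR siRNA value below every control siRNA value.

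Of the 45 GR-induced genes in the table, 35 were compared: 19 were above 0 and 16 below, with a median of 0.0082 in GR siRNA cells and 0.048 in control siRNA cells, where 23 were above 0; the other 10 were under 1 FPKM. Over all compared genes 48.1% were above 0 in GR siRNA cells and 47.2% in control siRNA cells. The list median in GR siRNA cells was −0.0038 after the adjustment for transcript length and GC content described below. On the FPKM + 1 scale none reached 1.25-fold in GR siRNA cells, against 1.26% of all compared genes higher and 0.973% lower. Differences under 0.1 in size made up 23 of the 35 (65.7%), close to the 67.6% of all compared genes. Per1, a clock component with GR sites, was at 7.91 and 7.99 FPKM in GR siRNA cells and 15.1 and 16.5 FPKM in control siRNA cells. Sgk1, a kinase that regulates ion transport, was at 491 and 457 FPKM, against 645 and 664 FPKM in control siRNA cells, the lower value in GR siRNA cells being the one with DEX. Ddit4, an inhibitor of mTOR signalling, was at 238 and 251 FPKM in GR siRNA cells and 373 and 439.9 FPKM in control siRNA cells; its difference was 0.076 against 0.24. Dusp1, a phosphatase of MAP kinases, was at 85.6 and 86.6 FPKM, against 97.2 and 98.3 FPKM in control siRNA cells. Lcn2, an acute-phase protein, read 1.26 and 1.26 FPKM in GR siRNA cells and 12.2 and 10.2 FPKM in control siRNA cells, and Klf9, a zinc finger repressor, 30.9 and 29.2 FPKM, against 42.3 and 41.8 FPKM in control siRNA cells. In each of these 6 genes both GR siRNA values lay below both control siRNA values. Other members of the list stood the other way. Angptl4 was at 12.9 and 12.2 FPKM in GR siRNA cells and 4.98 and 5.91 FPKM in control siRNA cells. Rgs2 was at 14.6 and 15.5 FPKM, against 10.7 and 12.3 FPKM, and Ehd3 at 9.42 and 10.4 FPKM, against 4.97 and 4.94 FPKM.

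Larger differences within the list pointed both ways. Anxa1, annexin A1, a mediator of glucocorticoid action on leukocytes, had the largest higher value with DEX, at 463 and 562 FPKM in GR siRNA cells and 461 and 482 FPKM in control siRNA cells (0.28 and 0.065); its adjusted value in GR siRNA cells was 0.18. Fam107a, an actin-associated stress protein, was at 2.19 and 2.81 FPKM, against 4.31 and 4.64 FPKM in control siRNA cells, a ratio of 1.28 in FPKM itself in GR siRNA cells, and Cdkn1c, a cell cycle inhibitor, at 2.04 and 2.48 FPKM in GR siRNA cells and 2.50 and 2.70 FPKM in control siRNA cells. Txnip, an inhibitor of thioredoxin and of glucose uptake, was higher with DEX in both arms by a like amount, 0.17 and 0.14. On the low side Cebpb, a transcription factor of the acute-phase response, read 25.9 and 22.5 FPKM, against 53.5 and 60.4 FPKM in control siRNA cells, a difference of −0.19 in GR siRNA cells and 0.17 in control siRNA cells. Angptl4, a lipoprotein lipase inhibitor, was −0.084 in GR siRNA cells and 0.21 in control siRNA cells. Zbtb16, a zinc finger protein known as a strong GR target, was under the filter at 0.897 and 0.715 FPKM in GR siRNA cells and stood at 3.93 and 3.61 FPKM in control siRNA cells.

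**Figure D2:**
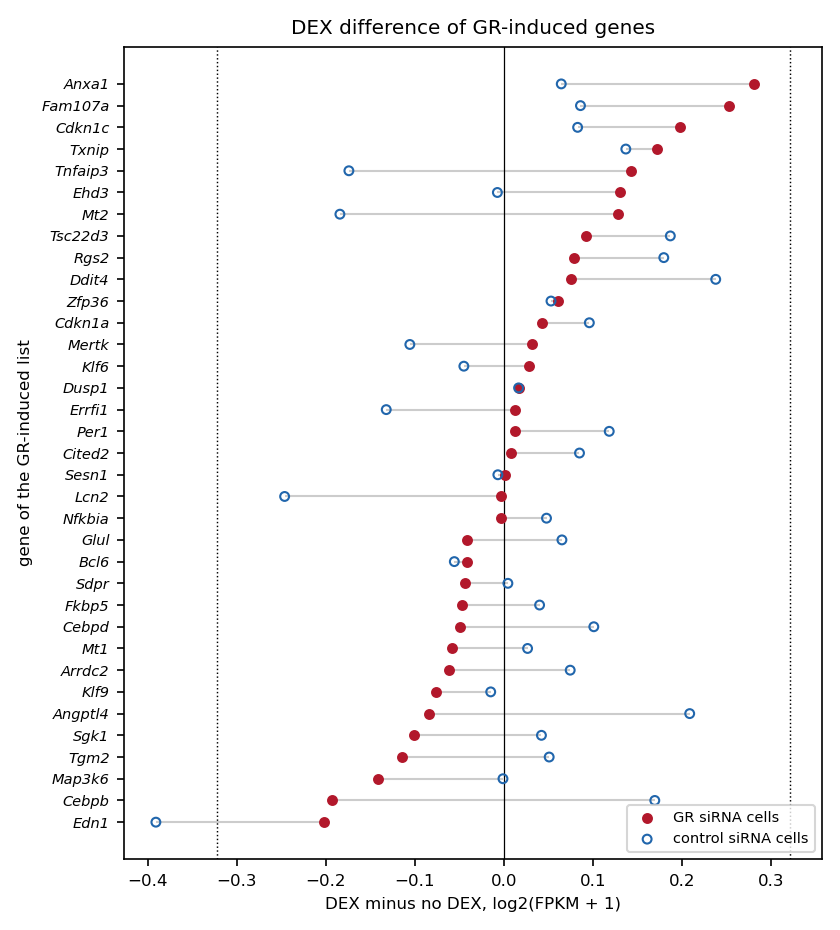
DEX difference in log2(FPKM + 1) of the 35 compared genes of the GR-induced list, in GR siRNA cells (filled red) and control siRNA cells (open blue), ordered by the former; dotted lines mark 1.25-fold. No filled point passes a dotted line, and points lie on both sides of 0, from Edn1 at −0.20 to Anxa1 at 0.28.

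Transcripts of the proteins that carry, modify and read the receptor's signal also differed little. Of 18 compared steroid receptors and GR chaperones, 6 were above 0 and 12 below (median −0.033, adjusted −0.011), and none reached 1.25-fold. In control siRNA cells 2 were above 0 and 16 below (median −0.042), and over all compared genes 51.9% were below 0 in GR siRNA cells. Fkbp4, the co-chaperone that favours hormone binding, was at 103 and 92.5 FPKM in GR siRNA cells and 92.3 and 90.5 FPKM in control siRNA cells. The mineralocorticoid receptor Nr3c2, which DEX can also bind, was near 0.0945 and 0.0998 FPKM in GR siRNA cells. Among genes of steroid metabolism and export, 9 were compared, with 2 above 0 and 7 below, and with 7 above 0 in control siRNA cells. Hsd11b1, which regenerates active glucocorticoid, was at 0.443 and 0.433 FPKM and Hsd11b2, which inactivates it, at 0.318 and 0.249 FPKM in GR siRNA cells without and with DEX, all under the filter.

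Inflammatory genes known as targets of GR repression were more often higher than lower with DEX in GR siRNA cells. The table holds 29 of them, and 16 were compared. In GR siRNA cells 11 were above 0 and 5 below, with a median of 0.046, against 48.1% of all compared genes above 0. In control siRNA cells 3 were above 0, with a median of −0.060, against 47.2% of all compared genes. In 9 of the 16 the value was higher with DEX in GR siRNA cells and lower with DEX in control siRNA cells, a combination seen in 24.8% of all compared genes. Il6 and Ccl7 reached 1.25-fold, and the lowest value belonged to Tlr2, a sensor of bacterial lipoproteins, at −0.22. Ccl7 passed the filter of 1 FPKM only through its value with DEX, and Tlr2 only through its value without DEX. The direction of these 2 genes thus follows in part from the filter. Il6, which encodes interleukin 6 (mm10 chr5:30013114-30019981), was at 2.12 and 3.68 FPKM, against 2.18 and 1.95 FPKM in control siRNA cells. It was the only member of the list at 1.5-fold, with differences of 0.59 and −0.11, and its 3 other values lay between 1.95 and 2.18 FPKM. The adjusted value of Il6 was 0.49.

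Some chemokines followed the same order at higher levels. Ccl2, which draws monocytes, was at 41.6 and 47.9 FPKM in GR siRNA cells and 33.7 and 24.4 FPKM in control siRNA cells, differences of 0.20 and −0.45. Ccl5, a T cell chemokine, read 6.35 and 7.96 FPKM, against 4.69 and 3.83 FPKM in control siRNA cells (0.29 and −0.24). Cxcl10, an interferon-induced chemokine, was at 3.66 and 4.76 FPKM in GR siRNA cells and 6.94 and 6.02 FPKM in control siRNA cells (0.30 and −0.18). In each of the 3 genes the DEX column was the higher one in GR siRNA cells and the lower one in control siRNA cells. Adjusted for transcript length and GC content, the values in GR siRNA cells were 0.061 for Ccl2, 0.16 for Ccl5, 0.26 for Cxcl10 and 0.19 for Ccl7, which had been 0.37. Other chemokines of the list lay below 0 in GR siRNA cells, Cxcl1 at −0.076 (adjusted −0.16) and Cx3cl1 at −0.068 (adjusted −0.0073). The adhesion molecule Vcam1 followed the same order, at 20.1 and 22.8 FPKM, against 18.9 and 18.0 FPKM in control siRNA cells. Its differences were 0.17 and −0.065, and its adjusted value in GR siRNA cells was 0.12. The adhesion molecules Icam1 and Selp did not follow this order. Icam1 was at 36.9 and 37.4 FPKM in GR siRNA cells and 40.0 and 40.4 FPKM in control siRNA cells, and Selp, P-selectin, at 50.3 and 50.3 FPKM, against 33.0 and 28.4 FPKM in control siRNA cells. Ccl7 was at 0.616 and 1.08 FPKM in GR siRNA cells, close to the filter of 1 FPKM. The difference between the arms was not tested for any of these genes.

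Interferon-stimulated genes differed between the arms mainly by their lower values with DEX in control siRNA cells. Of 25 compared, 14 (56%) were above 0 in GR siRNA cells (median 0.0059), against 48.1% of all compared genes. In control siRNA cells 3 were above 0 (median −0.055), against 47.2% of all compared genes. With DEX, 13 were higher in GR siRNA cells and lower in control siRNA cells, a combination seen in 24.8% of all compared genes. Ifit2, which restricts viral translation, was at 13.1 and 15.4 FPKM in GR siRNA cells and 13.8 and 12.3 FPKM in control siRNA cells, and Cmpk2, a mitochondrial nucleotide kinase, at 4.68 and 5.56 FPKM, against 7.48 and 6.71 FPKM in control siRNA cells. No gene of the list reached 1.25-fold. After the same adjustment, the median of this list in GR siRNA cells was −0.012, with 11 of 25 above 0. That of the GR-repressed list was 0.052.

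A few genes differed in the same direction in both arms. Fosb, a subunit of the AP-1 transcription factor (mm10 chr7:19302696-19310051), was at 14.1 and 18.3 FPKM in GR siRNA cells and 6.67 and 12.9 FPKM in control siRNA cells, differences of 0.36 and 0.86. Fos, its better known relative, was at 6.58 and 8.31 FPKM, against 6.41 and 8.68 FPKM in control siRNA cells (0.30 and 0.39), and Egr1, a zinc finger factor induced within minutes of a stimulus, at 5.6 and 7.03 FPKM in GR siRNA cells and 5.22 and 5.68 FPKM in control siRNA cells. Of the 21 compared immediate early genes 11 were above 0 and 10 below in GR siRNA cells, against 48.1% and 51.9% of all compared genes. Fosb alone reached 1.25-fold on the FPKM + 1 scale; in FPKM itself the ratios of Fos and Egr1 were 1.26 each.

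On the lower side 6 genes are given, picked after their values were seen because they were lower with DEX in both arms; the grouping is a description only. Ankrd1, a nuclear ankyrin repeat protein, was at 10.3 and 8.03 FPKM, against 19.4 and 12.8 FPKM in control siRNA cells (−0.32 and −0.57). Thbs1, thrombospondin 1, was at 14.9 and 11.6 FPKM in GR siRNA cells and 14.9 and 11.8 FPKM in control siRNA cells (−0.34 and −0.32). Ctgf and Cyr61, matricellular proteins, differed by −0.17 and −0.11 in GR siRNA cells and by −0.29 and −0.37 in control siRNA cells. Edn1, the vasoconstrictor endothelin 1, was at 7.36 and 6.27 FPKM, against 7.69 and 5.63 FPKM in control siRNA cells, and Apln, the peptide apelin, at 44.9 and 38.4 FPKM in GR siRNA cells and 42.6 and 33.9 FPKM in control siRNA cells. Of these, Ankrd1 and Thbs1 reached 1.25-fold in GR siRNA cells, and Thbs1 stood at −0.29 after the adjustment.

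Among long unshared genes of at least 5 FPKM, the largest higher value with DEX after Lars2 belonged to Rpp21, a subunit of the RNase P complex that trims transfer RNA, at 32.6 and 48.0 FPKM, against 39.2 and 42.7 FPKM in control siRNA cells (0.55). Atp5j2, a small subunit of ATP synthase, followed at 130.0 and 177 FPKM in GR siRNA cells and 175 and 189.5 FPKM in control siRNA cells (0.44). Calml4, a calmodulin-like protein, was at 54.2 and 71.8 FPKM, against 48.0 and 45.7 FPKM in control siRNA cells, and Ifi27l2a, an interferon-induced protein, at 30.1 and 38.6 FPKM in GR siRNA cells and 73.6 and 64.0 FPKM in control siRNA cells. The other higher genes of the first 15 included Zfp958, Amn1, Smpdl3a, Hcst, Tmem126b, Dnajc15, Zfp672, Cox7b and Commd6, from 0.34 to 0.42. Within the GR siRNA columns, Zfp958 and Hcst reached 5 FPKM only with DEX, so their place here follows in part from that limit. Adjusted values were about as large for Rpp21 (0.46), Atp5j2 (0.41) and Calml4 (0.41), and smaller for Ifi27l2a (0.18, from 0.35), Cox7b (0.18, from 0.35) and Hcst (0.24, from 0.38).

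The largest lower value belonged to Neurl1b, an E3 ubiquitin ligase of the Notch pathway, at 5.99 and 4.13 FPKM, against 7.15 and 7.22 FPKM in control siRNA cells (−0.45). Spata5l1, an AAA ATPase, was at 11.2 and 8.13 FPKM in GR siRNA cells and 8.83 and 9.87 FPKM in control siRNA cells, and Nucks1, an abundant chromatin protein, at 45.3 and 34.2 FPKM, against 36.2 and 38.5 FPKM in control siRNA cells. Foxn3, a forkhead repressor, differed by −0.38, Plec, the cytoskeletal linker plectin, by −0.34, Rest, a repressor of neuronal genes, by −0.34, and Hspg2, the basement membrane proteoglycan perlecan, by −0.33. Of these lower genes, Neurl1b and Foxn3 reached 5 FPKM in GR siRNA cells only without DEX, so their place here follows in part from that limit. After the adjustment Plec stood at −0.14 and Hspg2 at −0.14, while Foxn3 stood at −0.34, Rest at −0.29, Nucks1 at −0.41 and Neurl1b at −0.35. In control siRNA cells Foxn3, Plec, Rest and Hspg2 differed by 0.0025, −0.012, −0.012 and −0.086. Sesn2, a stress-induced regulator of mTOR, was at 8.96 and 6.91 FPKM in GR siRNA cells and 7.29 and 7.60 FPKM in control siRNA cells.

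Across the table the differences followed transcript length. Among long unshared genes of at least 5 FPKM in GR siRNA cells, the median difference was 0.11 for the 193 genes with a longest transcript of 300 to 1000 nt, 0.028 for 990 genes of 1000 to 2000 nt, −0.00084 for 2813 genes of 2000 to 4000 nt, −0.034 for 2386 genes of 4000 to 8000 nt and −0.073 for 358 genes of 8000 nt or more. In control siRNA cells the order was the same and the span smaller, from 0.035 to −0.057. By GC content of that transcript the arms were ordered oppositely: the median went from 0.033 below 45% to −0.053 at 55% or more in GR siRNA cells and from −0.022 to 0.023 in control siRNA cells. A quadratic fit of both properties over long unshared genes took up 32.8% of the variance of the difference in GR siRNA cells and 9.93% in control siRNA cells. The part of these trends in the differences of single genes and lists was not tested; values after subtracting the fit are given as adjusted values, an alternative chosen after seeing the data.

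**Figure D3:**
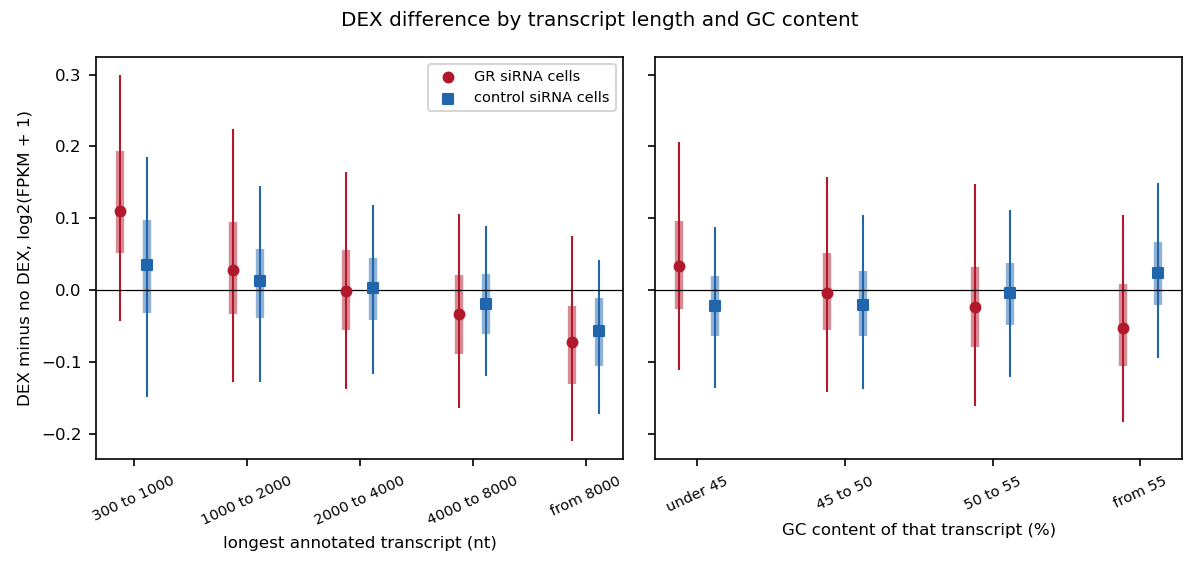
DEX difference in log2(FPKM + 1) of long unshared genes of at least 5 FPKM by length (left) and GC content (right) of the longest annotated transcript, in GR siRNA cells (red circles) and control siRNA cells (blue squares). Points are medians, thick bars span the middle 50% of genes and thin lines the 5th to 95th percentile; medians in GR siRNA cells go from 0.11 for the shortest to −0.073 for the longest class.

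Among lists with at least 7 compared genes, the 5 whose medians stood farthest from 0 lay nearer to it after the adjustment. Of all compared genes, 48.1% were above 0 in GR siRNA cells and 47.2% in control siRNA cells. Genes of cytosolic ribosomal proteins, which are short, were above 0 in 31 of 32 cases (median 0.12, adjusted 0.049), with Rps4x the exception at −0.013; 22 of 32 were above 0 in control siRNA cells (median 0.020), and 5 of the 32 are long unshared genes. Rpl32 was at 2053 and 2482 FPKM, against 2359.8 and 2423 FPKM in control siRNA cells. Only Rpl34 reached 1.25-fold, at 50.2 and 74.4 FPKM in GR siRNA cells and 75.7 and 80.4 FPKM in control siRNA cells. Subunits of oxidative phosphorylation were above 0 in 17 of 26 cases (median 0.044, adjusted −0.021) and in 18 of 26 in control siRNA cells, among them Ndufa4, a subunit of cytochrome c oxidase, at 244 and 289.7 FPKM, against 331 and 324 FPKM in control siRNA cells.

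The share of all compared genes below 0 was 51.9% in GR siRNA cells and 52.5% in control siRNA cells. Extracellular matrix and TGF-beta genes were below 0 in 23 of 30 cases (median −0.10, adjusted −0.021), against 17 of 30 in control siRNA cells (median −0.010). Col3a1, a fibrillar collagen, was at 2.26 and 1.54 FPKM in GR siRNA cells and 1.59 and 1.47 FPKM in control siRNA cells, and was the only one at 1.25-fold. Fn1, fibronectin, was at 65.7 and 54.5 FPKM, against 48.6 and 43.3 FPKM in control siRNA cells, and Col4a1, a basement membrane collagen, at 561 and 487 FPKM in GR siRNA cells and 464 and 456 FPKM in control siRNA cells. Fn1 differed by −0.27 and, adjusted, by −0.16. Notch genes were below 0 in 16 of 17 cases (median −0.078, adjusted −0.043, where 12 were below 0), and in 12 of 17 in control siRNA cells (median −0.030). Notch4, the receptor most restricted to endothelium, was at 62.0 and 52.0 FPKM, against 68.4 and 68.7 FPKM in control siRNA cells, and Notch1 at 26.8 and 23.0 FPKM in GR siRNA cells and 22.7 and 21.3 FPKM in control siRNA cells; their differences were −0.25 and −0.21, and adjusted −0.10 and −0.069. The ligand Dll4 differed by −0.068 (adjusted −0.0055) and the effector Hes1 by −0.13 (adjusted −0.19). Angiogenesis genes were below 0 in 16 of 22 cases (median −0.091, adjusted −0.027) in GR siRNA cells and also in 16 of 22 in control siRNA cells (median −0.044), with Pdgfb, the growth factor that recruits pericytes, at 93.5 and 79.7 FPKM, against 77.9 and 75.3 FPKM in control siRNA cells.

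Wnt signalling was given its own lists because GR is known to act on it in endothelium. Of ligands and secretion factors 4 were compared; Wnt9b, the best expressed ligand, was at 10.1 and 10.3 FPKM in GR siRNA cells and 17.5 and 19.0 FPKM in control siRNA cells. Receptors and transducers were below 0 in 22 of 27 cases (median −0.068, adjusted −0.020, where 17 were below 0), against 11 of 27 in control siRNA cells (median 0.017). Below 0 were 51.9% of all compared genes in GR siRNA cells and 52.5% in control siRNA cells. Fzd4, a Frizzled receptor known for its part in retinal vessels, was at 50.4 and 44.8 FPKM, against 66.0 and 64.8 FPKM in control siRNA cells, and Fzd7 at 14.5 and 12.4 FPKM in GR siRNA cells and 16.8 and 15.7 FPKM in control siRNA cells. The co-receptor Lrp6 differed by −0.16 and Gpr124, a co-activator of Wnt7 signals, by −0.18. Ctnnb1, beta-catenin itself, was at 425 and 407 FPKM, against 412 and 405 FPKM in control siRNA cells. Of 7 antagonists 4 were above 0, and of 12 compared targets 2, against 5 and 6 in control siRNA cells; among the targets Bmp4 was at 1.5 and 1.09 FPKM in GR siRNA cells and 1.08 and 0.802 FPKM in control siRNA cells, and Ccnd1, cyclin D1, differed by −0.090. On the FPKM + 1 scale no gene of the Wnt lists reached 1.25-fold; in FPKM itself the ratio of Bmp4 was 0.729.

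**Figure D4:**
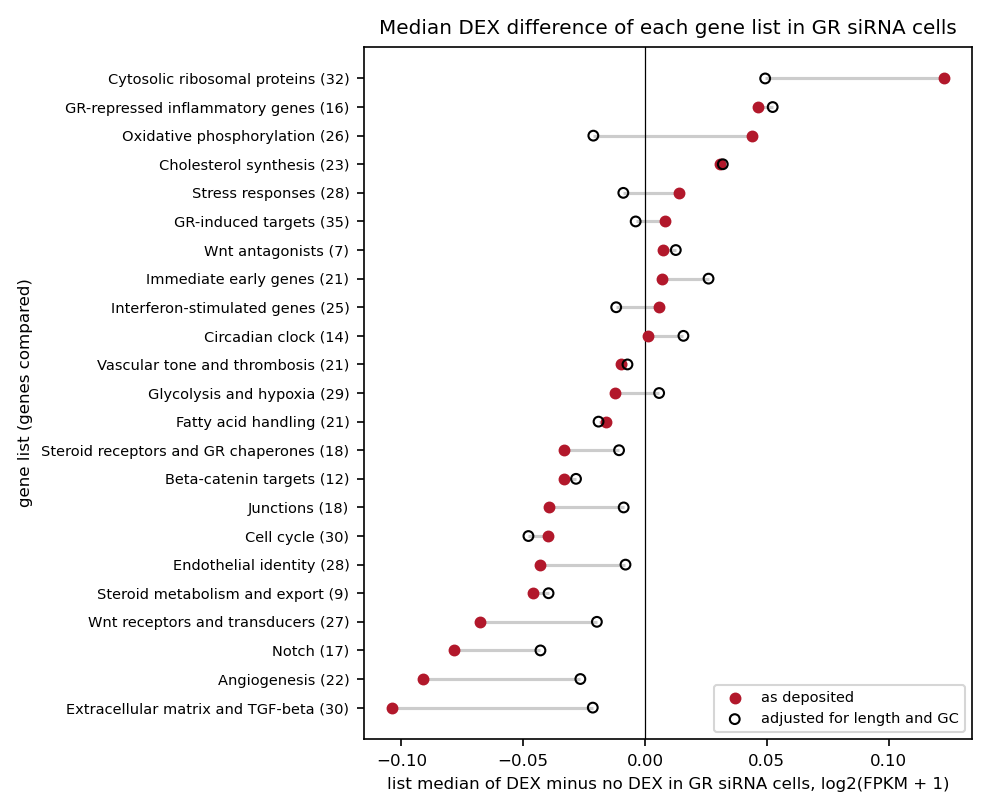
Median DEX difference in log2(FPKM + 1) in GR siRNA cells for each gene list with at least 7 compared genes (number in brackets), as deposited (filled red) and after subtracting the fit on transcript length and GC content (open). Medians run from −0.10 for extracellular matrix and TGF-beta genes to 0.12 for cytosolic ribosomal proteins, and those of both lists lie nearer 0 after adjustment.

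The remaining pathway and identity lists had medians between −0.043 and 0.031. Their counts stand beside 48.1% of all compared genes above 0 and 51.9% below in GR siRNA cells. In control siRNA cells these shares were 47.2% and 52.5%. Cholesterol synthesis genes were above 0 in 18 of 23 cases (median 0.031, adjusted 0.032) and in 6 of 23 in control siRNA cells. Fdps, which makes farnesyl diphosphate, was at 65.5 and 73.4 FPKM, against 40.9 and 40.3 FPKM in control siRNA cells. Cell cycle genes were below 0 in 22 of 30 cases (median −0.040, adjusted −0.048) and in 23 of 30 in control siRNA cells (median −0.022). In GR siRNA cells the replication helicase subunits Mcm3, Mcm4 and Mcm5 stood at −0.16, −0.15 and −0.16 and the mitotic cyclin Ccnb2 at 0.16. Endothelial identity genes were below 0 in 19 of 28 cases (median −0.043, adjusted −0.0080 with 17 below 0) and in 14 of 28 in control siRNA cells; Vwf, the clotting factor stored in endothelial granules, was at 3.87 and 2.90 FPKM in GR siRNA cells and 4.10 and 4.05 FPKM in control siRNA cells, and Cldn5, the tight junction protein, at 368 and 332 FPKM, against 493 and 525 FPKM in control siRNA cells. Fabp4, a fatty acid carrier of capillaries, was at 400.4 and 496 FPKM in GR siRNA cells and 377 and 407 FPKM in control siRNA cells. It had the largest higher value in its list (adjusted 0.28), while Fasn, fatty acid synthase, differed by −0.24 (adjusted −0.089). Circadian clock genes were above 0 in 7 of 14 cases (6 in control siRNA cells), stress response genes in 16 of 28 (8) and fatty acid genes in 9 of 21 (8). Junction genes were above 0 in 6 of 18 cases (6 in control siRNA cells), genes of vascular tone and thrombosis in 9 of 21 (7) and genes of glycolysis and hypoxia in 13 of 29 (16).

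All 28 endothelial identity genes were at 1 FPKM or more in all 4 columns, and their FPKM summed to 5363 without and 5259.8 with DEX in GR siRNA cells. The 16 fibroblast and mural markers summed to 23.0 and 20.5 FPKM, with Rgs5 and Tcf21 at 0 in all columns, and the 16 lung epithelium markers to 18.4 and 19.0 FPKM, with Sftpa1, Sftpd and Scgb3a2 at 0. The 17 leukocyte markers summed to 196 and 221 FPKM, nearly all of it Cd68, a lysosomal protein, at 194 and 218 FPKM, while Ptprc, Cd3e, Cd3g, Ms4a1, Nkg7 and S100a9 were at 0. The 8 lymphatic markers summed to 215 and 213 FPKM, with Ccl21a at 0. Other markers did pass the filter and were compared. These were 4 fibroblast and mural markers (Dcn, Col3a1, Acta2 and Tagln, 1 above 0) and 4 epithelial markers (Sftpb, Ager, Hopx and Krt18, 2 above 0). Also compared were 2 leukocyte markers (Cd68 and Cd14, both above 0) and 3 lymphatic markers (Flt4, Lyve1 and Itga9, 1 above 0). In GR siRNA cells 1 fibroblast and 1 epithelial marker were 1.25-fold lower with DEX, each at −0.36, against 0.973% of all compared genes. The part of these markers in the results above was not tested. These are whole-culture values, in which fewer cells of a type and less RNA per cell cannot be told apart.

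The largest difference of any long unshared gene belonged to Lars2, annotated as the mitochondrial leucyl-tRNA synthetase (mm10 chr9:123366927-123462666). It was at 153 and 349.6 FPKM, against 630.3 and 346 FPKM in control siRNA cells, differences of 1.18 and −0.86. Rn45s, the 45S ribosomal RNA precursor, was at 577 and 1316 FPKM in GR siRNA cells and 2181 and 1139 FPKM in control siRNA cells. Lars2 amounted to 26.6% of the Rn45s value in both GR siRNA columns, 28.9% in control siRNA and 30.4% in control siRNA with DEX. Both genes were thus highest in the control siRNA column and lowest in the GR siRNA column, with the 2 columns with DEX in between. Whether Lars2 reads come from ribosomal RNA was not tested.

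Short RNAs made up most of the counts at 1.5-fold. The comparison held 149 RNAs with names starting in Mir, Snor or n-R5. Of those with no transcript of 300 nt, 37 were higher with DEX in GR siRNA cells and 61 lower. Among all 154 genes with no such transcript, 40 were higher and 64 lower at 1.5-fold in GR siRNA cells. In control siRNA cells 44 of the 154 were higher and 26 lower, so such differences were not particular to GR siRNA cells. Over all genes, 27 were 1.5-fold different in the same direction in both arms, and 25 of these bear such names. FPKM of a transcript no longer than a fragment divides by a small effective length, and RNAs of these names are given as counts only. Of the other short RNAs, Rmrp, the RNA of RNase MRP, was at 1.77 and 10.4 FPKM, against 17.2 and 12.2 FPKM in control siRNA cells.

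Some gene pairs with almost the same sequence exchanged their values between the 2 GR siRNA columns. Rps27 encodes a protein of the small ribosomal subunit, and Rps27rt is a retrogene copy. Rps27 was at 73.6 and 1930.2 FPKM in GR siRNA cells and 2309.5 and 2143 FPKM in control siRNA cells, and Rps27rt at 1623 and 125 FPKM, against 45.7 and 99.6 FPKM in control siRNA cells. Their coding sequences, from GENCODE M21 on mm10, are identical over all 255 bases: Rps27-201 lies at chr3:90212671-90213651 on the minus strand and Rps27rt-201 at chr9:114982366-114982739 on the minus strand. They are shown because no read that falls within them can tell the genes apart; both are printed from the start codon, with no base in capitals because none differs.
Rps27: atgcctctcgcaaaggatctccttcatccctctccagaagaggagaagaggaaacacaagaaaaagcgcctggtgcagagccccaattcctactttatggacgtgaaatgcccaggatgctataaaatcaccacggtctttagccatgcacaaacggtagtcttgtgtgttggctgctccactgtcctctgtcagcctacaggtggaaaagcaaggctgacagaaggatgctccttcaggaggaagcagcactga
Rps27rt: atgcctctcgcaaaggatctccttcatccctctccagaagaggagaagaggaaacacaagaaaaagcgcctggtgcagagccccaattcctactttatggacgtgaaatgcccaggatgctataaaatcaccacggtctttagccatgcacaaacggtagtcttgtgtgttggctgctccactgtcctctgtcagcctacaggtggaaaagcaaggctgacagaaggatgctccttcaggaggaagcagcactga

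Atp6v0c, the proton-channel subunit of the vacuolar ATPase, and its processed copy Atp6v0c-ps2 showed the same exchange. Atp6v0c was at 74.5 and 598 FPKM in GR siRNA cells and 504 and 473 FPKM in control siRNA cells, and Atp6v0c-ps2 at 559 and 17.7 FPKM, against 99.3 and 161 FPKM in control siRNA cells. Aligned over 468 columns, the coding sequence of Atp6v0c-201 (chr17:24163866-24169461, minus strand) and the copy (chr6:37806086-37806550, plus strand) match at 464 (99.1%), with a longest identical run of 352. The first 150 bases of each follow, with the 1 differing base in capitals.
Atp6v0c: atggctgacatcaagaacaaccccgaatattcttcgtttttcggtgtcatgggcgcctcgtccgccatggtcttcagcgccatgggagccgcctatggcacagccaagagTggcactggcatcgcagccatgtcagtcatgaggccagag
Atp6v0c-ps2: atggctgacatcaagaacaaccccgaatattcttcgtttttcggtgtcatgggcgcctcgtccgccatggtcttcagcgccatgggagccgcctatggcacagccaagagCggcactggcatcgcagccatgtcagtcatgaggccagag

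In Ndufs5, a complex I subunit, and its copy BC002163 the same exchange was seen. Ndufs5 was at 16 and 81.1 FPKM in GR siRNA cells and 81.0 and 66.8 FPKM in control siRNA cells, and BC002163 at 56.3 and 0.275 FPKM, against 0.0593 and 12.1 FPKM in control siRNA cells. Eno1, the glycolytic enzyme enolase, was at 175 and 231 FPKM in GR siRNA cells and 170.1 and 172 FPKM in control siRNA cells, and its copy Eno1b at 87.9 and 25.3 FPKM, against 19.0 and 19.7 FPKM in control siRNA cells, so that the value of 0.40 for Eno1, the only member of the glycolysis and hypoxia list at 1.25-fold, stands beside one of −1.76 for its copy. In all 4 pairs the copy was highest in the GR siRNA column without DEX, and in 3 of the 4 the parent gene was lowest there. The 4 copies were picked among the largest lower differences with DEX in GR siRNA cells, so this order follows in part from the choice. Reads within shared sequence cannot tell such genes apart, so differences of these genes with DEX in GR siRNA cells are uncertain. Among all 2554 genes with shared sequence, 57 were 1.25-fold higher with DEX in GR siRNA cells and 16 lower, against 19 and 16 in control siRNA cells.

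**Figure D5:**
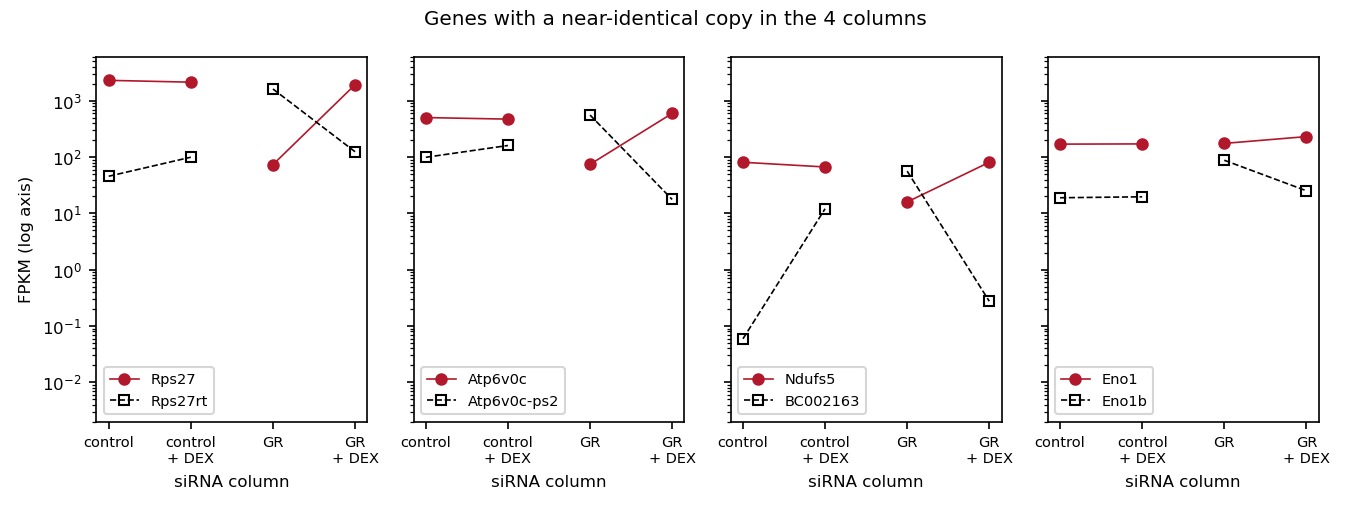
FPKM (log axis) of 4 genes (filled red) and their near-identical copies (open black) in the 4 columns, with lines joining the columns of 1 siRNA arm. In GR siRNA cells without DEX the values of Rps27, Atp6v0c and Ndufs5 fall below those of their copies, and in the other 3 columns they lie above.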

How the data were processed

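The authors deposited 1 table of FPKM for 23997 genes in 4 columns, 1 per condition. TopHat2 and Cuffdiff on mm10 are named in the submitters' processing notes; their versions, the gene models, the strand setting and how replicates were combined are not stated there or in the labels. FPKM scales fragments by transcript length and library size, and Cuffdiff splits those shared between genes by an estimate. Differences were taken on log2(FPKM + 1) for genes of at least 1 FPKM in either GR siRNA column; just inside were Gsap at 1.001 and Igf1 at 1.004 FPKM, just outside Cpa3 at 0.9998 and Epor at 0.9994 FPKM. With 1 column per condition no test was run; Python 3.11.15 and pandas 2.3.3 were used, and the counting was tested on simulated data. Genes were matched to GENCODE M21 (22702 by symbol, 918 by synonym, 377 not matched), which gave transcript lengths, GC content, coordinates and 31-base words.

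Named are Nr3c1, Fkbp5 and Tsc22d3; among long unshared genes of at least 5 FPKM, the 15 largest differences on each side and the 8 on each side that differ most between the arms; the 10 largest on each side among all genes of at least 5 FPKM; and any member of 28 lists (677 symbols, 667 in the table). Clone names, predicted genes and RNAs named Mir, Snor or n-R5 were only counted. The genes and lists were chosen with earlier results of these data known. Alternatives were another pseudocount, filter or scaling, only long unshared genes, and an adjustment for length and GC content added after seeing the data.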

Additional observations from a re-analysis of the deposited data

Results flagged for a closer look

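Among the genes named here, opposite differences with DEX, at least 1.25-fold in each arm, drew attention to 10. They were drawn from named genes only, so 10 is not a count over all compared genes. Of all long unshared genes, 1 of the 36 higher and 2 of the 22 lower in GR siRNA cells were such genes. With 1 value per condition the difference between the arms was not tested. Lars2 stood at 1.18 in GR siRNA cells and −0.86 in control siRNA cells, and the ribosomal RNA precursor Rn45s at 1.19 and −0.94. Copies of other genes were BC002163 at −5.49 and 3.63, Atp6v0c-ps2 at −4.90 and 0.69, and Rps27rt at −3.69 and 1.11. Short RNAs were Rmrp at 2.04 and −0.46, Bc1 at 1.46 and −1.93, and AF357399 at −5.11 and 3.66.

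Mt3, a metallothionein, was at 1.46 and 0.837 FPKM in GR siRNA cells and 0.778 and 1.74 FPKM in control siRNA cells (−0.42 and 0.62), and Prrt1, a membrane protein of synapses, at 1.22 and 0.660 FPKM, against 1.34 and 2.05 FPKM in control siRNA cells (−0.42 and 0.38). Both are long unshared genes of low abundance, chosen for naming after their values were seen. Both passed the filter of 1 FPKM only through the GR siRNA value without DEX. Their lower values with DEX in GR siRNA cells thus follow in part from the filter.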

How the results depend on the processing

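With a pseudocount of 0.1 in place of 1, 82 genes were at least 1.5-fold higher and 82 lower with DEX in GR siRNA cells. With only long unshared genes the counts were 4 and 2, since short and sequence-sharing genes were not counted. The other alternatives gave 46 to 60 higher and 61 to 78 lower genes, against 60 and 73. For long unshared genes at 1.25-fold, the counts of 36 higher and 22 lower became 23 and 18 after the adjustment for length and GC content (added after seeing the data), 106 and 68 with a pseudocount of 0.1, 10 and 1 with a pseudocount of 5, and 20 and 13 among genes of at least 5 FPKM. Neither rescaling moved the median of all genes by 0.1. The median of the lymphatic markers, −0.088, became 0.0078 with no filter on low values. The cause of these changes, other than that named, was not tested. No paired analysis was possible because each condition has 1 column with no replicate number, and no replicate could be left out. The depth is unknown, so that no counting error can be given; low values are the least precise.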

Other observations

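Genes whose difference with DEX was farther apart between the arms than most, other than those above, included Cyp1a1, a target of the aryl hydrocarbon receptor, at 8.45 and 7.45 FPKM in GR siRNA cells and 12.2 and 15.5 FPKM in control siRNA cells (−0.16 and 0.33), and Chac2 and Slc35d2, at 0.34 and 0.24 in GR siRNA cells and −0.22 and −0.25 in control siRNA cells.

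Long unshared genes spread more in GR siRNA cells than in control siRNA cells in every abundance class from 2 FPKM up, with the widest gap among highly expressed genes. Among 204 long unshared genes of 200 FPKM or more, the 5th to 95th percentile of the DEX difference spanned 0.396 in GR siRNA cells and 0.166 in control siRNA cells. Among 1193 genes of 2 to 5 FPKM the spans were 0.368 and 0.341, and among 602 genes of 1 to 2 FPKM they were 0.402 and 0.431. In GR siRNA cells 62.3% of the 204 genes were above 0, against 48.5% of the 602.

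Rpl26, a ribosomal protein gene, was at 1.42 and 25.6 FPKM, against 6.31 and 7.65 FPKM in control siRNA cells, and the predicted copy Gm15772, named after its values were seen, at 1282 and 1434 FPKM in GR siRNA cells and 1419 and 1414 FPKM in control siRNA cells. Pet117, which shares sequence with another gene, was the only named gene outside the short RNAs at 1.5-fold in the same direction in both arms, at 3.14 and 5.79 FPKM, against 3.11 and 7.38 FPKM in control siRNA cells.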
